A study of Mus musculus with 4 samples.

Results

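Natural killer cells and type 1 innate lymphoid cells (ILC1) were sought in a droplet single-cell data set of mouse colon tumours by the UMIs of 11 genes. A UMI is a tag that marks a single captured RNA molecule. A cell barcode was a member when it held no UMI of Cd3e, Cd3d and Cd3g, at least 1 UMI of Ncr1 or Klrb1c, at least 1 UMI of Nkg7, and none of Cd8b1, C1qa, C1qb, C1qc and Siglech. It also had to hold at least 500 UMIs and 200 genes and at most 20% mitochondrial UMIs. Of 14198 barcodes that passed the latter filter, 53 were members (0.373%, exact Clopper-Pearson 95% interval 0.280 to 0.488%). The members were thus chosen by measured UMIs, the values of those 11 genes describe the choice, and no comparison below carries a test.

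The tumours were raised in female C57BL/6 mice, all given 12.5 mg/kg azoxymethane (AOM), a carcinogen, and 3 cycles of 5 days of dextran sulphate sodium (DSS), which inflames the colon, at 2.5, 2.5 and 2%, with harvest 30 days after DSS ended. There are 4 labelled samples, 1 per group, which cross a sort for CD45+ immune or CD45- non-immune cells with the genotypes Egfr fl/fl and EgfrdeltaMYL. Both genotypes carry the AOM and DSS treatment, the labels name no Cre driver for the EgfrdeltaMYL mice, no untreated colon is among the groups, and the number of animals per sample is not given. The counts came as 1 matrix whose barcodes carry 4 suffixes, called libraries 1 to 4 here, and no source pairs a suffix with a sample. No genotype or sort was therefore compared, and each library's value stands alone.

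Members were found in 2 libraries. Libraries 1 and 2 held 0 of 594 and 0 of 1706 passing barcodes, which allows shares of up to 0.505 and 0.176% by a limit of 3 counts. Library 3 held 19 of 4516 (0.421%, 0.253 to 0.656%) and library 4 held 34 of 7382 (0.461%, 0.319 to 0.643%), and these intervals overlap. The members held 271457 UMIs in all, with 1131 to 10337 per barcode (median 4825) and a median of 1.95% mitochondrial UMIs. Libraries shared 14 barcode sequences among passing barcodes, and 0 of these were members'. Intervals here and below cover counting error only.

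Natural killer cells are innate lymphocytes that kill stressed or transformed cells without a rearranged antigen receptor. They read activating and inhibitory receptors, many of them lectin-like proteins coded side by side in the natural killer gene complex, and release perforin and granzymes, interferon gamma and chemokines such as XCL1, which attracts cross-presenting dendritic cells. ILC1 share the receptors NKp46 (Ncr1) and NK1.1 (Klrb1c) and the factor T-bet (Tbx21) with them, but are tissue-resident, are classed as lacking Eomes, and bear CXCR6, CD49a (Itga1) and often the interleukin-7 receptor.

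The label was checked first against genes outside the rule. Il2rb, the beta chain of the interleukin-2 and -15 receptor, had a UMI in 53 of 53 members, against 649 of 882 barcodes with a Cd3 UMI and at least 2 Nkg7 UMIs (called Cd3-positive Nkg7-high) and 15 of 1473 B barcodes (at least 1 UMI each of Cd79a and Ms4a1 and none of Cd3), which should lack it. Klrk1 (NKG2D) had one in 51 of 53, 258 of 882 and 10 of 1473. Xcl1, the fourth marker given for these cells and not part of the rule, had one in 37 of 53, 202 of 882 and 5 of 1473. Eomes had one in 20 of 53, 107 of 882 and 0 of 1473. The median depths were 4825 UMIs in members, 6172.5 in Cd3-positive Nkg7-high barcodes and 4281 in B barcodes. After each barcode was thinned to 1000 UMIs, which left out 0, 6 and 10 barcodes, Il2rb was seen in 77.4, 25.9 and 0.0684% and Xcl1 in 37.7, 11.3 and 0% of the 3 groups.

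Markers of other lineages were checked next, by list. Of 7 ILC3 markers 5 were at 0 UMIs, among them Il23r, Il22, Il17a and Il1r1, Ccr6 had 1 UMI, and Kit was present. Of 7 ILC2 markers 6 were at 0, among them Il1rl1, Il5 and Il13, and Gata3 had 26 UMIs. Of 13 T cell genes, Cd8a, Cd5, Cd6, Themis, Tcrg-C1 and Tcrg-C2 were at 0, and Trac, the constant part of the T cell receptor alpha chain, had 2 UMIs, or 7.37 CPM (counts per 1000000 UMIs of the group, 95% interval 0.892 to 26.6), against 531 in Cd3-positive Nkg7-high barcodes. The beta-chain constant gene Trbc1 was at 733 CPM, with a UMI in 51 of 53 members, against 702, 104 and 1.61 CPM in Cd3-positive Nkg7-high, all other passing and B barcodes. Of the 5 T cell genes that could be counted against all other passing barcodes, 4 were higher in members and Trac lower, with a median log2 ratio of 1.11. Trbc2 was at 368 CPM, with a UMI in 27 members, against 1250 in Cd3-positive Nkg7-high barcodes. Tcrg-C4, a gamma-chain constant gene, had 27 UMIs in members, 11 of them in 1 barcode. In all, 52 of 53 members held a UMI of a T cell receptor constant gene, so a screen on any such gene would have kept 1 barcode.

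RNA of myeloid and other cells was present at low levels. The summed monocyte and macrophage list (7 genes, 1 at 0) was at 86.3 and 616 CPM in the members of libraries 3 and 4, and the neutrophil list (5 genes, 0 at 0) at 201 and 2273. A single library 4 member, with Ncr1 0, Klrb1c 1 and Nkg7 3 among 6843 UMIs, held 232 of 255 S100a9, 114 of 132 S100a8 and 59 of 63 Cd14 UMIs of all members, along with 120 of 186 Ccl3 and 192 of 517 Ccl4 UMIs. Without it the library 4 sums were 231 and 162 CPM. Of the 53 members, 40 held 2 or more UMIs of a B, myeloid, dendritic, mast, epithelial or stromal list. The dendritic list was used here without H2-Ab1, Ccr7 and Fscn1. These lists include Pecam1 and Itgax, which lymphocytes can express too. Whether these are free RNA or doublets was not tested, and no doublets were removed.

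Near the borders of the rule, 65 barcodes failed only through a Cd3 UMI, 67 only for want of Ncr1 and Klrb1c, 21 only for want of Nkg7 and 17 only through C1q UMIs. The 12 of the latter with exactly 1 C1q UMI held Prf1 at 899 CPM and Gzma at 6306 CPM, and the 8 Cd3 failures at 1 UMI held them at 461 and 1121 CPM. Just inside the rule, the 6 members with 1 Nkg7 UMI held Prf1 at 47.0 CPM and Gzma at 0, and the 8 members with a sum of 1 UMI over Ncr1 and Klrb1c held them at 262 and 864 CPM. Ncr1 was seen in 43 members and Klrb1c alone in 10.

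The sequences upstream of 4 genes are shown because they belong to the entry gene Ncr1 and to 3 effector genes that stood higher in members than in either comparison group below, and because the T-box factors Eomes and T-bet and the Runx factor Runx3 were among the factors higher in members. Each run is the 250 bases before the RefSeq start (build GRCm38.p6), 5′ to 3′ on the gene's strand. Capitals mark matches on either strand to AGGTGT (a T-box core) or TGTGGT (a Runx core), which do not overlap each other here.
Ncr1, chr7:4337465-4337714, forward strand: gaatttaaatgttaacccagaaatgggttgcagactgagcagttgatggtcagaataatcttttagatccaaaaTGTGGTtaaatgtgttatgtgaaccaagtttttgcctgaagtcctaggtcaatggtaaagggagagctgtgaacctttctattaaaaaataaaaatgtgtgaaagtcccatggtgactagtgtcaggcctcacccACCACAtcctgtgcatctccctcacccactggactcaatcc
Xcl1, chr1:164935523-164935772, reverse strand: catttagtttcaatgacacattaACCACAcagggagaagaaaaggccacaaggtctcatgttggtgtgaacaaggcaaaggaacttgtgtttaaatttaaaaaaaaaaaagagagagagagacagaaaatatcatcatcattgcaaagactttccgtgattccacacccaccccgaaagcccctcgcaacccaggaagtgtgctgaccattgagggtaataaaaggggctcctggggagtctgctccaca
Prf1, chr10:61297586-61297835, forward strand: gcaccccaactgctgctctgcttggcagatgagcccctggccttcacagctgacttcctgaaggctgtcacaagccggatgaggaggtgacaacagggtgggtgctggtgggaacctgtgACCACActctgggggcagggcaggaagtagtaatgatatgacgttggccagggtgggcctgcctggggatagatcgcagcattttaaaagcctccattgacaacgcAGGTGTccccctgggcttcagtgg
Gzma, chr13:113100982-113101231, reverse strand: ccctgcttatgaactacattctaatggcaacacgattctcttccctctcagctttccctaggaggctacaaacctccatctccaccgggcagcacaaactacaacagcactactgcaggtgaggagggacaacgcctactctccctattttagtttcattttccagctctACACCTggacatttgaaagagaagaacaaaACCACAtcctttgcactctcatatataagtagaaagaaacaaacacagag
Prf1 and Gzma each held 1 T-box match and 1 Runx match, Ncr1 held 2 Runx matches and Xcl1 held 1. In the T-box case the match lay 24 to 19 bases before the start of Prf1 and 80 to 75 before that of Gzma. Over all 32851 listed promoters the same window held AGGTGT on either strand in 11.8%, TGTGGT in 14% and at least 1 of them in 23.7%. A match describes letters and is no evidence of binding, and RefSeq listed 2 starts for Ncr1, of which the more upstream is shown.

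Against all 14145 other passing barcodes, which hold myeloid, B, T, epithelial and erythroid cells, the members stood out through receptors, granule genes and T-box factors. Levels are CPM over a group's summed UMIs, ratios are log2 of such levels with no pseudocount and an exact 95% interval, and a gene was counted as higher or lower from a 2-fold ratio where it reached 10 UMIs at the smaller total in either group. Of 4910 such genes, 1191 (24.3%) were higher and 698 (14.2%) lower in members, with a median log2 ratio of 0.46 over all of them. Of 16 identity receptors that could be counted, 14 were higher, with a median of 4.24. Of 10 cytotoxic genes 9 were higher, with a median log2 ratio of 4.2. The 6 listed Ly49 genes that could be counted were higher, with a median of 6.82. Each of these 6 reached the minimum only in members, so it could only be called higher. Listed Ly49 genes low in both groups were not counted. Klra2, a Klra gene outside that list, was at 7.37 against 65.4 CPM (-3.15). Prf1 (perforin, which opens the target membrane) was at 457 against 5.28 CPM, and Eomes at 147 against 1.74. Xcl1 was at 1986 against 24.3 CPM, a log2 ratio of 6.35.

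The nearer comparison was with the 882 Cd3-positive Nkg7-high barcodes, of which libraries 1 to 4 held 7, 9, 424 and 442. These barcodes were not screened for C1q, and 24.1% of them held a C1q UMI. They also held Il17a, a cytokine of type 17 lymphocytes, at 303 CPM against 0 in members (a bound of -4.78). Of 4586 genes, 520 (11.3%) were 2-fold higher and 222 (4.84%) lower in members, and the median log2 ratio over all of them was 0.27. Higher in members were most natural killer receptors, the adaptors Tyrobp and Fcer1g, perforin and granzyme A, XCL1, Eomes, Il2rb, Il12rb2, Il18r1 and Il18rap. Lower were 10 of 13 T cell genes (Trbc1 was not among them), the adaptors Lat and Cd247, and 4 of 6 checkpoint genes. Amphiregulin and 5 of 6 genes of dividing cells were lower too. Members were chosen without and the other group with a Cd3 UMI, so lower T cell genes follow in part from that choice.

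**Figure D1:**
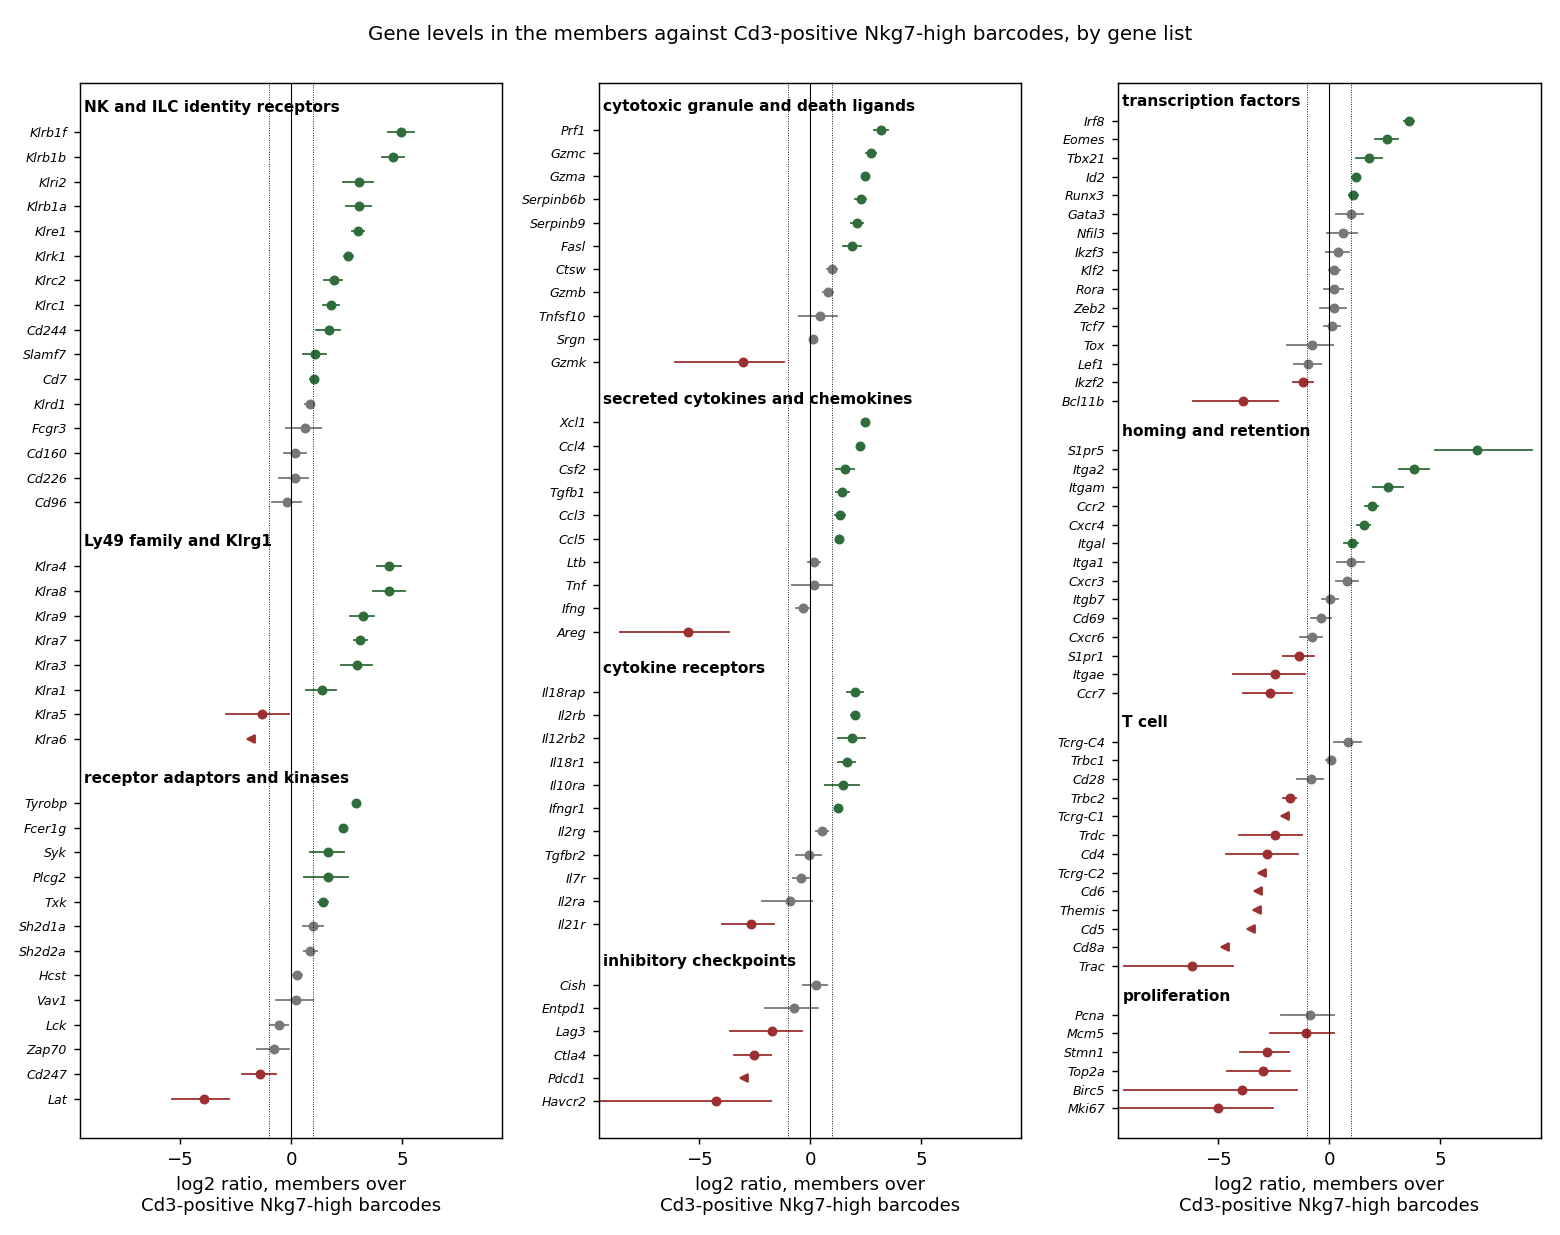
Log2 ratio of summed CPM in the 53 members over the 882 Cd3-positive Nkg7-high barcodes for most of the genes of 11 lists that could be counted. Circles with lines are ratios with exact 95% counting intervals, triangles are bounds for genes at 0 UMIs in members, dotted lines mark 2-fold, and green and red mark genes past it. The Ly49 genes reach 4.42 at Klra4, while 10 of the 13 T cell genes lie 2-fold or more to the left. Members were chosen without and the other group with a Cd3 UMI, which in part sets the side of the T cell genes.

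Of 16 identity receptors, 11 were 2-fold higher and 0 lower, with a median of 1.75. Klrk1, the activating receptor for stress ligands, was at 866 CPM in members (710 in library 3, 963 in library 4) and 146 in Cd3-positive Nkg7-high barcodes, a log2 ratio of 2.57 (2.36 to 2.78). Its level ran from 0 over a median of 864 to 3113 CPM of a barcode's own UMIs, and only 2 members, both of library 4, had none. Klre1, an inhibitory or activating lectin-like receptor depending on its partner, was at 560 against 68.9 CPM (3.02, 2.75 to 3.29). Klrb1f, of the same NKR-P1 family as NK1.1, was at 199 against 6.47 (4.94, 4.34 to 5.55). Klrd1 (CD94), the partner of the NKG2 chains, was less far apart at 759 against 423 (0.84, 0.63 to 1.05), and is known to mark cytotoxic T cells too. Cd226, Cd96 and Cd160 differed by less than 2-fold, at 0.17, -0.17 and 0.19.

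Of 8 Ly49 and Klrg1 genes, 6 were higher and 2 lower, with a median of 3.04. Ly49 proteins, coded by the Klra genes, bind MHC class I and mostly inhibit killing. Klra7 was at 497 CPM in members (719 in library 3, 359 in library 4) against 57.7, a ratio of 3.11 (2.81 to 3.39). It was seen in 22 members, up to 28 UMIs in a barcode, and its median was 0. Klra4 was at 214 against 10.0 (4.42, 3.89 to 4.94), Klra8 at 122 against 5.74 (4.40, 3.69 to 5.11) and Klra9 at 155 against 16.6 (3.22, 2.67 to 3.74). Klra6, at 0 in members and 38.0 in the others, gave a bound of -1.78, and Klra5 was at 18.4 against 45.8 (-1.31, -2.95 to -0.07). Klra genes are near-identical copies, so reads could have been split between them in counting and their single values are uncertain. Their sum was 325 UMIs, or 1197 CPM against 224 (2.42, 2.24 to 2.59).

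The lectin-like receptor genes lie together, and in GENCODE M21 (GRCm38, the build of the files) 24 Klr genes span 2638 kb at chr6:128609227-131247362. Leaving out the rule gene Klrb1c, 20 of 23 had a UMI in members and 3 were at 0. Of 17 that could be counted, 14 were 2-fold higher and 2 lower than in Cd3-positive Nkg7-high barcodes.

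**Figure D2:**
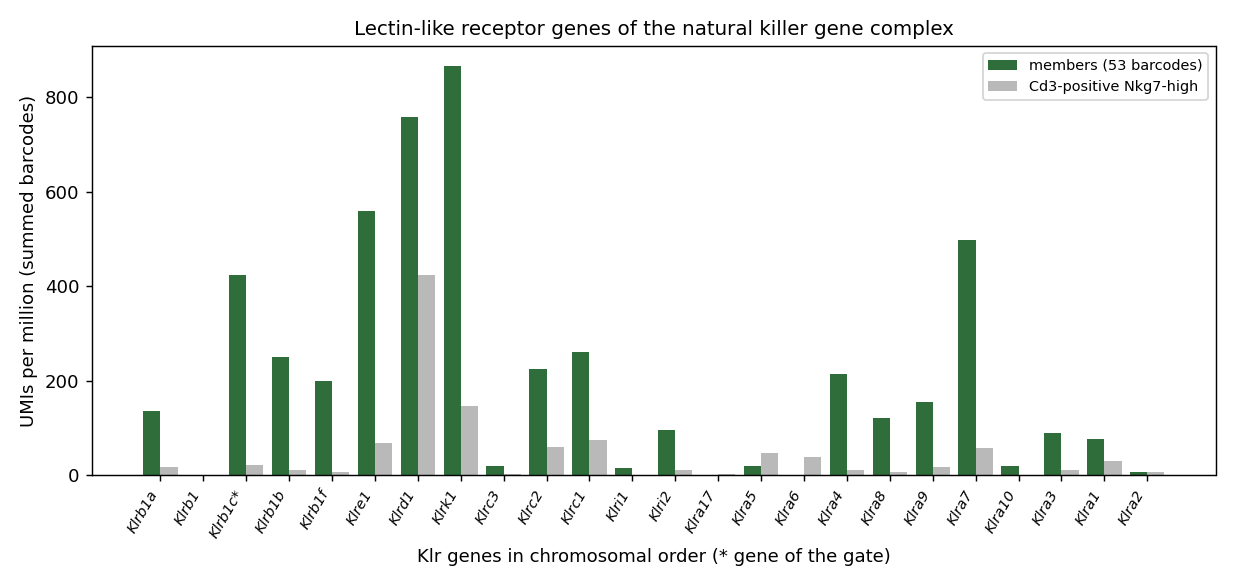
Summed CPM of 24 Klr genes in their chromosomal order, in members (green) and Cd3-positive Nkg7-high barcodes (grey). Klrk1 reaches 866 in members against 146, Klra7 497 against 57.7, and Klra6 is at 0 in members against 38.0.

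Adaptors and kinases carry the signals of these receptors. Of 14 adaptors and kinases, 5 were higher and 3 lower, with a median of 0.57. Tyrobp (DAP12), which carries the signal of activating Ly49 and NKG2 receptors, was at 1927 CPM against 256 (2.91, 2.77 to 3.05), with 50 of 53 members positive. Fcer1g, the partner of NKp46 and CD16, was at 2129 against 418 (2.35, 2.22 to 2.48). The kinase Syk was at 66.3 against 20.9 (1.67, 0.87 to 2.38) and Txk, a Tec-family kinase, at 685 against 250 (1.46, 1.23 to 1.68). The T cell receptor adaptor Lat was at 22.1 against 331 (-3.90, -5.35 to -2.78) and Cd247 at 58.9 against 153 (-1.38, -2.19 to -0.67). Hcst (DAP10) differed by less than 2-fold, at 0.26. Tyrobp and Fcer1g are also myeloid genes, and the monocyte and macrophage list summed to 413 CPM in members (174 without the S100a9-rich member) and 1575 in Cd3-positive Nkg7-high barcodes.

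Of 11 cytotoxic genes, 6 were higher and 1 lower, with a median of 1.90. Prf1 was at 457 CPM in members (431 and 473 in libraries 3 and 4) against 50.3, a ratio of 3.18 (2.87 to 3.48). It ran from 0 over a median of 198 to 4767 CPM of a barcode's own UMIs, with a UMI in 31 of 53. Gzma, the tryptase of the granules, was at 4174 CPM (4900 and 3721) against 761 (2.46, 2.36 to 2.55). It was seen in 32 members, with a median of 585, the highest at 61890, and 21 members at 0. The granule protectors Serpinb9 and Serpinb6b were higher by 2.12 and 2.29, and Fasl, the death ligand, by 1.90 (1.48 to 2.29). Gzmb was at 626 against 356 (0.81), but 75 of its 170 UMIs came from 1 member, without which the ratio was -0.00. Gzmc was at 774 against 114 (2.76), with its 210 UMIs in 8 members and 107 of them in 1, without which it was 1.78. Gzmk, at 2 UMIs in members, was lower (-3.02, -6.07 to -1.16).

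**Figure D3:**
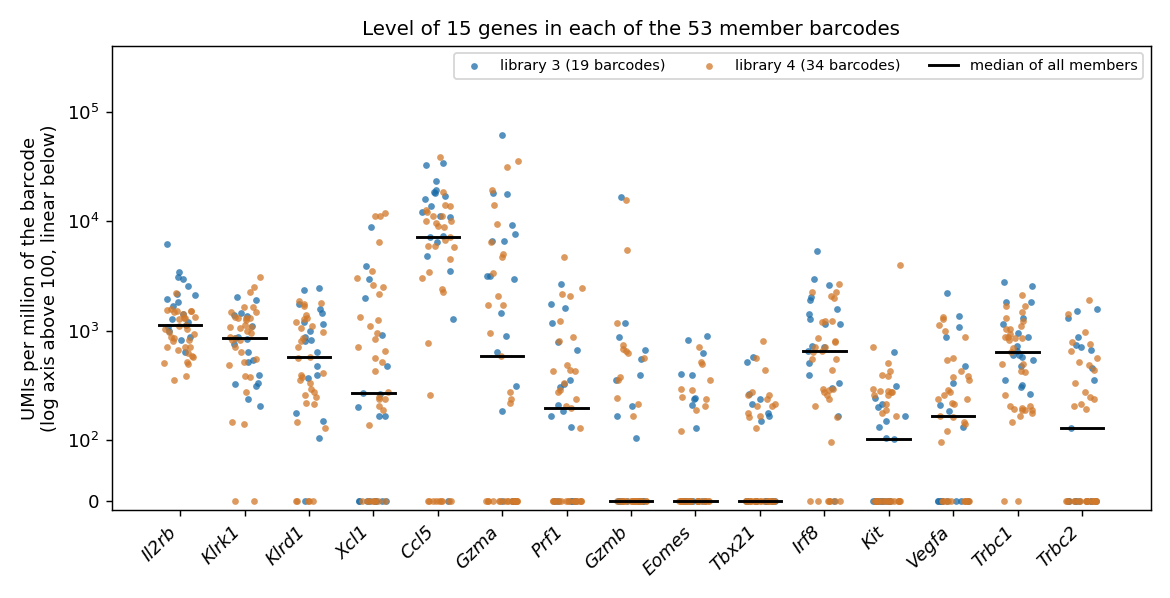
Level of 15 genes in each of the 53 members, as CPM of the barcode's own UMIs (log axis above 100), with library 3 in blue, library 4 in orange and the median of all members as a bar. Il2rb is above 0 in all 53, while Gzma is at 0 in 21 and reaches 61890 in 1 member.

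Of 10 secreted factors, 6 were higher and 1 lower, with a median of 1.32. Xcl1 was at 1986 CPM in members (1275 in library 3, 2429 in library 4) against 362 in Cd3-positive Nkg7-high barcodes, a ratio of 2.46 (2.32 to 2.59). It ran from 0 over a median of 271 to 11800 CPM, and 122 of its 539 UMIs lay in 1 member, without which the ratio was 2.14. Ccl5 was at 9265 against 3727 (1.31, 1.25 to 1.37), with 43 members positive and a median of 7252. Ccl4 was at 1905 against 400 (2.25, 2.11 to 2.39) and 1.62 without the S100a9-rich member. Ccl3 was at 685 against 273 (1.33, 1.10 to 1.55) and -0.13 without that member. Csf2 was higher by 1.58, with 44 of its 59 UMIs in 1 member and a ratio of -0.36 without it.

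Ifng, the main macrophage-activating cytokine of these cells, was not higher when libraries were pooled, at 317 against 393 CPM (-0.31, -0.64 to 0.00). By library the order turned, and both groups differed between libraries. The ratio was 1.63 in library 3, with members at 499 and Cd3-positive Nkg7-high barcodes at 161 CPM. It was -1.63 in library 4, at 203 and 630 CPM. A single member held 29 of the 52 Ifng UMIs of library 3, and without it the library 3 ratio was 0.56 (-0.11 to 1.16). The leading member of library 4 held 14 of 34, and without it that library's ratio was -2.36 (-3.07 to -1.73). Tnf was at 44.2 against 39.6 (0.16). Areg (amphiregulin, a ligand of EGFR) had 2 UMIs, or 7.37 CPM, against 336 (-5.51, -8.56 to -3.66). Tgfb1 was at 420 against 153 (1.45, 1.16 to 1.73).

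Of 16 transcription factors, 5 were higher and 2 lower, with a median of 0.32. Eomes, which drives conventional natural killer maturation, was at 147 CPM in members (230 in library 3, 95.7 in library 4) against 24.4 (2.59, 2.06 to 3.10). Its 40 UMIs lay in 20 members, up to 5 in a barcode. Tbx21 was at 107 (125 and 95.7) against 30.6 (1.80, 1.19 to 2.37), in 22 members. Eomes and Tbx21 were seen together in 7 members, Eomes alone in 13, Tbx21 alone in 15 and neither in 18, at depths where a factor of this level can be missed. Irf8 was at 873 against 72.8 (3.58, 3.35 to 3.81), in 45 members, Id2 (a repressor of E proteins needed by innate lymphocytes) at 1046 against 452 (1.21, 1.03 to 1.39) and Runx3 at 759 against 357 (1.09, 0.87 to 1.29). Bcl11b, a T cell identity factor, was at 11.1 against 161 (-3.86, -6.14 to -2.31), and Ikzf2 was lower by -1.17 (-1.62 to -0.75). Tcf7, at 254 against 232, differed by 0.13 (-0.24 to 0.48).

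Of 11 cytokine receptors, 6 were higher and 1 lower, with a median of 1.26. Il2rb ran from 357 over a median of 1124 to 6189 CPM and had no member at 0. Its summed level was 1282 CPM (1697 in library 3, 1023 in library 4) against 315 (2.03, 1.86 to 2.19). Both chains of the interleukin-18 receptor were higher, Il18r1 at 232 against 73.9 (1.65, 1.25 to 2.03) and Il18rap at 258 against 63.1 (2.03, 1.64 to 2.40). Il12rb2 was at 107 against 28.8 (1.89, 1.27 to 2.46). Il21r was lower, at 25.8 against 162 (-2.65, -3.97 to -1.60), and Il7r was at 243 against 320 (-0.40, -0.77 to -0.04). Kit, the stem cell factor receptor, which immature natural killer cells and other innate lymphocytes bear, was at 166 against 34.7 (2.26, 1.76 to 2.72), in 27 members. Mast cell markers were near 0 beside it: Cpa3 and Ms4a2 had 1 UMI each and Fcer1a, Mcpt8 and Gata2 none.

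Of 16 homing and retention genes, 8 were higher and 3 lower, with a median of 1.00. Itga2 (CD49b), an integrin of conventional natural killer cells, was at 114 against 8.09 CPM (3.82, 3.13 to 4.48), in 20 members. S1pr5, an exit receptor, had 12 UMIs in 5 members and 0.441 CPM in the other group (6.65, 4.76 to 9.11). Ccr2 was at 442 against 118 (1.91). Itga1 (CD49a) was at 95.8 against 48.0 (1.00, 0.36 to 1.58), just under 2-fold, and Cxcr6 at 136 against 236 (-0.79, -1.30 to -0.32). Lower were Ccr7 at -2.65, Itgae (CD103) at -2.46, with 4 UMIs in members, and S1pr1 at -1.35. Of the list that leans to conventional natural killer cells, 9 of 11 genes were 2-fold higher and 0 lower (median 3.11). That list includes Klra4, Klra7, Klra8, Klra9 and Eomes, which were already counted as higher above. Of the list that leans to ILC1, 2 of 8 were higher and 1 lower (median 0.46). The higher ones were Gzmc and Tmem176b.

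Of 6 checkpoint genes, 0 were higher and 4 lower, with a median of -2.13. Pdcd1 (PD-1) had 0 UMIs in members against 85.5 CPM, a bound of -2.95. Ctla4 was at 47.9 against 277 (-2.53, -3.44 to -1.75), Lag3 at 14.7 against 48.6 (-1.72, -3.60 to -0.35) and Havcr2 (TIM-3) had 1 UMI against 70.2 CPM (-4.25, -9.56 to -1.77). Of 6 proliferation genes, 0 were higher and 5 lower: Mki67 had 1 UMI against 118 CPM (-5.00, -10.31 to -2.52) and Top2a 5 UMIs against 145 (-2.98, -4.61 to -1.75). Cish, which restrains interleukin-15 signalling, differed by 0.25 (-0.32 to 0.77).

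Outside the lists, the gene ranks were set by the interval bound nearest to 0. Against Cd3-positive Nkg7-high barcodes the 10 leading higher genes included Rab27b, Dab2ip, Vegfa, Adamts14, Krt83, Arl4d, Plscr4 and Ccdc184. Vegfa, the vascular growth factor, had the most UMIs of these: 85 UMIs in 33 members, or 313 CPM (355 in library 3, 287 in library 4) against 18.7, a ratio of 4.07 (3.65 to 4.47) and 3.79 without the member that held most. Its level in all other passing barcodes, which include myeloid cells, was 126 CPM. Rab27b, which docks secretory granules, was at 47.9 against 1.03 (5.54, 4.11 to 7.10), with 13 UMIs in 6 members. Krt83 was at 162 against 12.7 (3.68, 3.12 to 4.22). The 10 leading lower genes were Ifi27l2a, Rgs10, Penk, Igfbp4, Dapl1, Slamf6, Hist1h1b, Fam169b, Tnfrsf4 and Pclaf. Ifi27l2a had 3 UMIs in members against 501 CPM (-5.50, -7.78 to -3.95), and Rgs10, at 0 UMIs against 173 CPM, gave a bound of -3.97. Against all other barcodes, Samd3 led, at 107 against 1.46 CPM (6.19, 5.57 to 6.77), followed by Adamts14, Arl4d, Qrfp, Kcnj8, Plscr4, Ccdc184, Crtam, Krt83 and Spry2.

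The members also differed among themselves, and were divided here by Ly49. A UMI of any of 11 Klra genes was present in 32 members, 15 of library 3 and 17 of library 4, and absent in 21, 4 and 17. Of the 32, 23 held 2 or more different Klra genes and the most in a member was 7. The median depth was 5133.5 UMIs with Klra and 4629 without, and no UMI does not show that a receptor is missing. Leaving out the Klra genes and the rule genes, 118 of 2032 genes (5.81%) were 2-fold higher and 238 (11.7%) lower in members with Klra, with a median log2 ratio of -0.14. Of 6 other genes that lean to conventional natural killer cells and could be counted, 4 were higher and 0 lower. Of 6 that lean to ILC1, 0 were higher and 5 lower, with a median of -4.24. The conventional genes called higher, Itga2, Itgam, Zeb2 and Eomes, reached the minimum only in members with Klra. Cxcr6, Gzmc, Il7r and Tmem176a, called lower, reached it only in members without. None of these could have been called the other way, so both counts follow in part from the minimum. Listed genes low on both sides, such as Itgae (23.4 CPM with Klra, 0 without), were not counted. The split was made on these same cells, and library 3 gave only 4 of the 21 members without Klra.

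Some granule and chemokine genes were higher in members with Klra, while their lists as a whole were not. Of 9 cytotoxic genes 3 were higher (Prf1, Gzma and Gzmb) and 1 lower (Gzmc), with a median of -0.05. Of 8 secreted factors 3 were higher (Ccl3, Ccl4 and Ccl5) and 3 lower (Xcl1, Csf2 and Ltb), with a median of -0.03. Gzma was at 6139 CPM with and 827 without (2.89, 2.57 to 3.23), and at 5890 against 272 in library 3 and 6390 against 951 in library 4. It was seen in 28 of 32 and 4 of 21, and the highest member without Klra reached 9521 against a median of 3071 with Klra, so the groups overlapped. Prf1 was at 631 against 159 (1.99, 1.22 to 2.84), in 23 of 32 and 8 of 21. Ccl5 was at 12155 against 4342 (1.49, 1.34 to 1.64), Klre1 at 766 against 209 (1.87, 1.20 to 2.61) and Irf8 at 1099 against 488 (1.17, 0.71 to 1.66). Each ratio was above 0 in both libraries, but Ccl5 in library 4 (0.77) and Irf8 in library 3 (0.39) were short of 2-fold. Gzmb was higher by 3.09 (2.21 without its leading member) and Ccl4 by 3.47 (2.81 without the S100a9-rich member). Of the conventional leaning genes, Itgam was at 129 against 19.9 (2.69, 0.67 to 5.82), Itga2 at 152 against 49.8 (1.61, 0.21 to 3.35), Zeb2 had 27 UMIs against 0 (a bound of 2.40, and 1.71 without the S100a9-rich member, which held 11) and Eomes was at 181 against 89.6 (1.02, -0.09 to 2.27, and 0.81 without its leading member). Eomes lay the other way in library 3 (-0.30).

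Most ILC1 leaning genes that could be counted were higher in members without Klra. The exception was Itga1 (CD49a), at 87.7 CPM with and 110 without (-0.32, -1.54 to 0.95), in 8 of 32 and 6 of 21 members. Cxcr6, a tissue-retention receptor, was at 0 with Klra and at 368 CPM without, in 10 of 21 members, a bound of -4.39 (-2.93 in library 4). The library 3 value of -4.55 rests on 1 of 4 members without Klra. That member held 15 Cxcr6, 80 Gzmc and 1 Trac UMIs. Il7r was at 35.1 with and 597 without (-4.09, -5.59 to -2.88), in 3 of 32 and 16 of 21 members. Tmem176a was at 5.85 against 388 (-6.05, -11.39 to -3.49), and Rora, which is from the transcription factor list, at 52.6 against 368 (-2.81, -4.04 to -1.73). Gzmc was at 11.7 against 2071 (-7.47, -10.52 to -5.60), with 187 of 210 UMIs in only 2 members, and seen in 1 of 32 and 7 of 21. Xcl1 was at 1222 against 3286 (-1.43, -1.68 to -1.17), in 19 of 32 and 18 of 21. It was -2.64 in library 3, -0.79 in library 4 and -0.92 without its leading member, and the values for library 4 and without that member are short of 2-fold. Tcf7 was at 170 against 398 (-1.23), Kit at 105 against 269 (-1.35, and -0.80 without its leading member), Klrb1b at 129 against 458 (-1.83) and Krt83 at 29.2 against 388 (-3.73). Tbx21, at 87.7 against 139 (-0.67, -1.82 to 0.49), and the pan-lineage genes Il2rb (0.27) and Klrk1 (-0.11) differed by less than 2-fold.

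**Figure D4:**
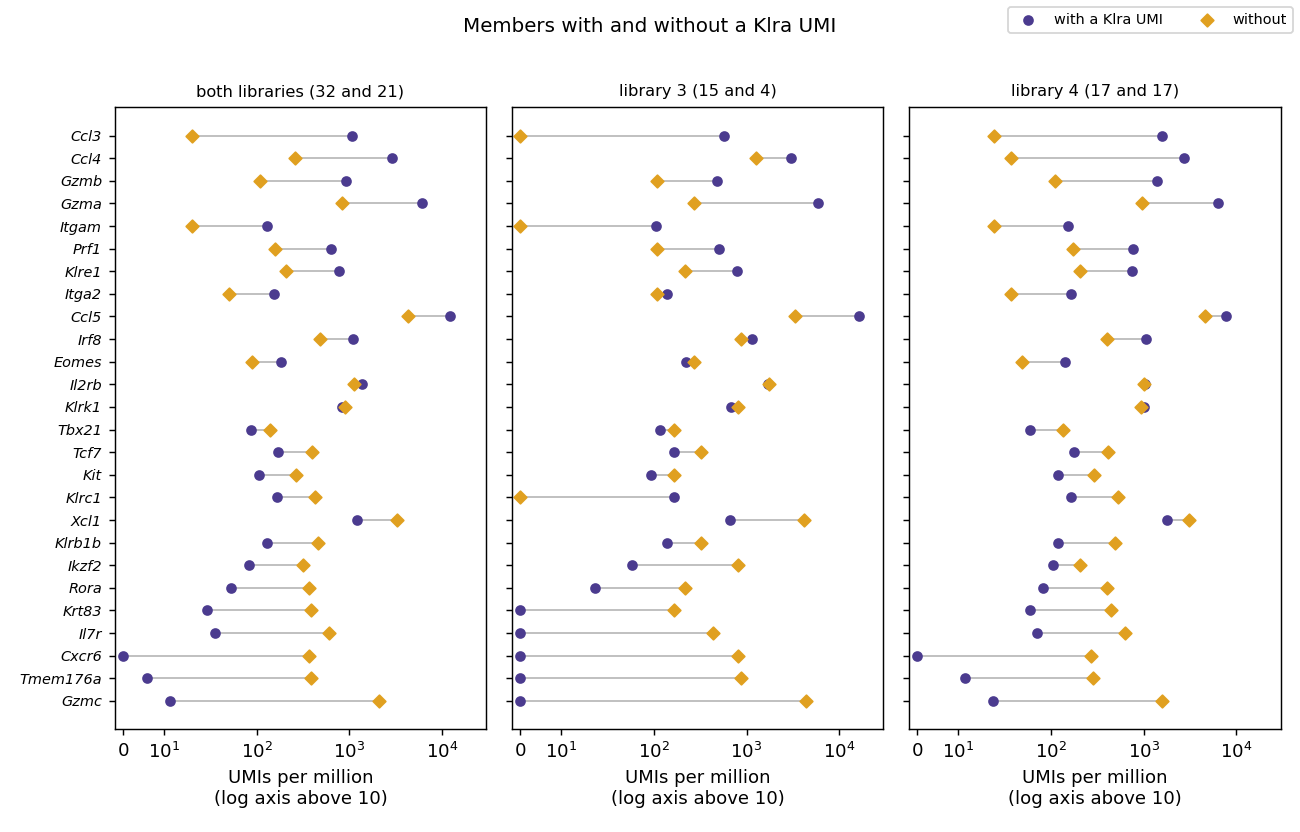
Summed CPM of 26 genes in members with (purple circles) and without (yellow diamonds) a Klra UMI, over both libraries and within each, on an axis that is logarithmic above 10. Gzma stands at 6139 against 827 and Gzmc at 11.7 against 2071, while Il2rb and Klrk1 nearly coincide.

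Pairs of genes were also counted within these same barcodes. Most of the genes had just been seen to differ across the Klra split, so the pairs are no separate support for that split. Gzmc was seen in 8 members, 0 of the 20 with Eomes and 0 of the 32 with Gzma. Cxcr6 was seen in 10 members, 0 of the 20 with Eomes and 1 of the 32 with Gzma. Gzma and Eomes were seen together in 18 of the 20 members with Eomes. Il7r was seen in 19 members, of which 2 had Eomes and 4 had Gzma. Other pairs were less divided. Itga1 was seen in 14 members, of which 8 had Gzma and 4 had Eomes, and Tbx21 in 22, of which 11 had Gzma. The barcodes with and without Gzma had median depths of 4824.5 and 5053 UMIs. Trbc1 differed by less than 2-fold across the Klra split, at 789 with Klra and 637 without (0.31, -0.13 to 0.76), in 31 of 32 and 20 of 21 members. Trbc2 was at 304 against 478 CPM (-0.65, -1.25 to -0.06), in 11 of 32 and 16 of 21. Tcrg-C4 was at 70.2 against 149 CPM (-1.09, -2.32 to 0.10), in 2 of 32 and 10 of 21. Without its leading member the Tcrg-C4 ratio was -4.61.

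**Figure D5:**
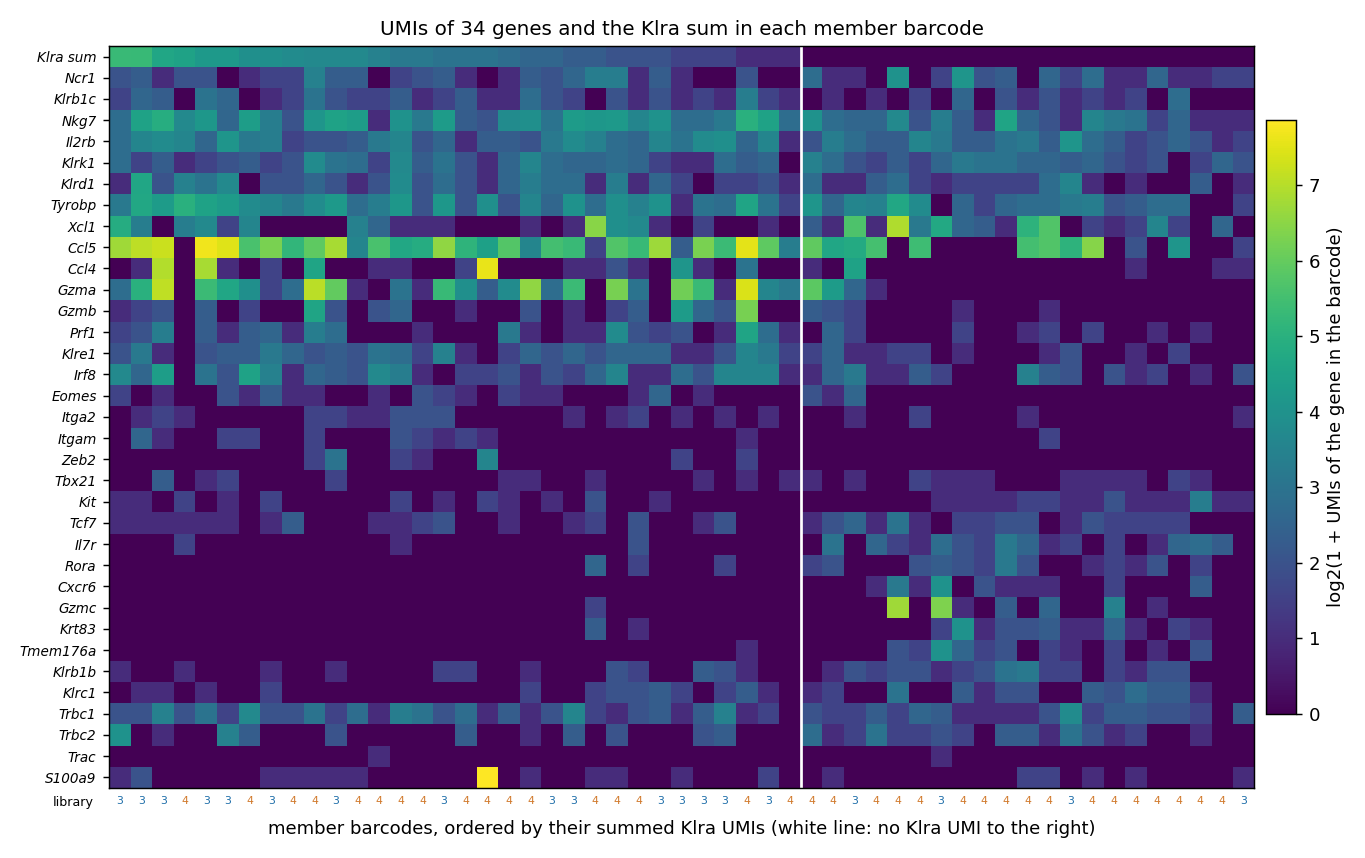
UMIs of 34 genes and the Klra sum in each of the 53 members as log2(1 + UMIs), ordered by the Klra sum and then by Gzma, with the library number under each column. Il7r, Rora, Cxcr6, Gzmc and Tmem176a are seen mostly right of the white line, Gzma in 28 of 32 columns left of it, and a single column left of the line carries 232 S100a9 UMIs.

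A small set of members held RNA of the alpha or delta chain. Trac or Trdc UMIs were present in 7 members (2 Trac and 5 Trdc UMIs), 2 of library 3 and 5 of library 4, and 4 of these had Klra. They held 187 of the 210 Gzmc UMIs, 53 of the 59 Csf2 UMIs and 23 of the 37 Cxcr6 UMIs, each from 2 of the 7. Without these 7 members the ratio over Cd3-positive Nkg7-high barcodes was -0.20 for Gzmc and -1.48 for Csf2. The other 46 members still held Gzmc in 6, Cxcr6 in 8 and Il7r in 16. Their Trbc1 level was 715 CPM and their Gzma level 4081.

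Between the libraries, the 19 members of library 3 held more Klra RNA (1812 against 814 CPM), Eomes and Il2rb, and the 34 of library 4 more Il7r (347 against 76.7), Rora (239 against 57.5) and Krt83 (245 against 28.8). The share with Klra was 15 of 19 in library 3 and 17 of 34 in library 4, and its part in these values was not tested. Within both libraries Il7r, Rora and Krt83 were lower with Klra than without. Library 3 had only 4 members without Klra, in which Rora and Eomes were each seen in 1, and Il7r and Krt83 each in 2. Il2rb with and without Klra was at 1688 and 1741 CPM in library 3 and at 1045.5 and 1000 in library 4. Eomes was lower with Klra in library 3 (221 against 272) and higher in library 4 (141 against 48.8). Library, sample, genotype and sort cannot be told apart here.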

How the data were processed

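Digested colon tumours were profiled in droplets by 10x Genomics V3 3′ chemistry, per the labels' protocols. The authors deposited unnormalised UMI counts, made with Cell Ranger 3.0.2 on mm10, per the submitters' processing notes. The matrix held 31053 genes, 18026 barcodes and 129529250 UMIs. No source used here gives the gene annotation's release. The members and gene lists were chosen with earlier results of these data known.

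Counts were summed over the barcodes of a group and scaled to CPM (Python 3.11.15, numpy 2.4.6, scipy 1.17.1), with Clopper-Pearson intervals for shares and for ratios. A group at 0 was set to 3 counts, as a bound. The ratio code was tested on simulated counts with known folds. There is no replicate, so no p-value is given. Thinning drew 1000 UMIs per barcode. Named outside the lists were the 10 leading genes by the interval bound nearest to 0; a few genes are not reported here. Alternatives changed the filters, the rule, the minimum, a pseudocount, the weighting of cells and the libraries used.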

Additional observations from a re-analysis of the deposited data

How the results depend on the processing

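No paired analysis was possible because no suffix is paired with a sample and each labelled group has 1 sample. The number of members was 52 with a mitochondrial limit of 10%, 53 from 1000 UMIs, 47 with Nkg7 at 2 or more, 43 with Ncr1 required and, chosen after seeing the data, 70 with C1q UMIs allowed. Genes 2-fold higher and lower numbered 1191 and 698 against all others, 520 and 222 against Cd3-positive Nkg7-high barcodes, and 118 and 238 with against without Klra. In the same order, they were 213 and 189, 89 and 41, and 14 and 20 with a minimum of 50 UMIs, and 284 and 196, 164 and 54, and 30 and 43 after thinning. With no minimum they were 2674 and 1422, then 1840 and 814. In 13 members with under 2 UMIs of each other-type list and not among the deepest, they were 322 and 211, then 176 and 69. The other-type lists were those behind the 40 members above, so the erythroid list was not used. Adding 10 CPM left 343 higher against Cd3-positive Nkg7-high barcodes. Leaving out each library in turn gave 558 to 1259 higher and 389 to 681 lower against all others, 338 to 523 and 133 to 224 against Cd3-positive Nkg7-high barcodes, and 28 to 172 and 51 to 192 for Klra; the lowest counts are those without library 4, which holds 34 of 53 members. Fewer barcodes or UMIs leave fewer genes above the minimum. Leaving out library 3 moved the share of higher among the Klra calls from 33.1 to 47.3%, and a minimum of 50 UMIs moved that against all others from 63 to 53%.

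Of 50 genes compared with Cd3-positive Nkg7-high barcodes, those past 2-fold whose ratio changed sign were those of Ccl3 (-3.87), Ccl4 (-1.61), Gzmc (-1.62) and Csf2 (-0.38) in the 13 members, Csf2 without library 3 (-0.42, and 4.20 without library 4) or its leading member (-0.36), Ccl3 without its leading, S100a9-rich member (-0.13), and Gzmc (-0.20) and Csf2 (-1.48) without the Trac or Trdc members. Genes short of 2-fold also crossed 0, among them Gzmb and Ifng. Cxcr6 over all others was -0.87 in the 13 members, and Eomes with over without Klra was -0.30 without library 4 and 1.53 without library 3. Members without any T cell receptor constant UMI were 1 barcode and gave no value. The depth limits genes at 0: 3 counts in the members are 11.1 CPM.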

Other observations

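Other gene groups of the members were as follows. Of 8 immediate early genes, 3 were 2-fold higher than in Cd3-positive Nkg7-high barcodes and 0 lower: Nr4a1 (1.51, 1.20 to 1.81), Jun (1.41, 1.12 to 1.70) and Ier2 (1.10, 0.76 to 1.43), with Fos at -0.43. Of 9 glycolysis and hypoxia genes 0 passed 2-fold in either direction, with a median of -0.63 and Gapdh at 542 against 1039 CPM (-0.94, -1.19 to -0.70). Of 4 interferon-response genes 0 passed 2-fold, and Isg15 was at 0 in library 3 and 203 CPM in library 4.

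Pecam1, an adhesion gene also of endothelium, was at 192 against 43.4 CPM (2.14, 1.69 to 2.57), in 25 members, with Col1a1, Col3a1, Dcn and Cdh5 at 0. Itgax (CD11c) was at 88.4 against 20.3 (2.12, 1.43 to 2.75), with Flt3, Xcr1, Clec9a and Fscn1 at 0. In all other passing barcodes Xcr1, the XCL1 receptor, was at 8.46 CPM and Il15, a growth factor of natural killer cells, at 14.2 CPM. The 12 members with Ncr1 and no Klrb1c UMI held Xcl1 at 4944 CPM and Gzma at 1154 CPM, and the 31 with both held them at 1016 and 6262. The 10 with Klrb1c alone held them at 1037 and 1756. Among the 12, single members held 122 and 88 Xcl1 UMIs, and another held 58 Gzma UMIs.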
